A study of Mus musculus with 2 samples.

Results

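The 10 Frizzled genes, *Fzd1* to *Fzd10*, were read in mouse embryonic fibroblasts (MEFs) with and without the transcription factor BCL11B, on every probe set of the array that the platform annotation assigned to exactly 1 of them. The rule found 26 probe sets for 10 genes, out of 45101 probe sets in all and 18193 genes that had a probe set of their own. All 10 Entrez identifiers matched the same symbol in the RefSeq gene table. MEFs are primary fibroblasts grown from whole embryos. Here they came from *BCL11B*+/+ and *BCL11B*-/- embryos of the C57BL/6 strain at embryonic day 12.5 and were used at passage 2. Both cultures had spent 12 h in adipocyte differentiation medium with 0.5 mM methylisobutylxanthine, 1 μM dexamethasone, 10 μg/ml insulin and 10 μM of the PPARγ agonist pioglitazone, with 10% serum. The deletion was carried by the whole embryo, and the sources used here do not give how many embryos were pooled. The study compared the genotypes to learn how BCL11B acts on adipogenesis, a process that Wnt/β-catenin signaling restrains.

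Frizzled proteins are multipass membrane receptors whose extracellular cysteine-rich domain binds the lipid-modified Wnt ligands. Together with the co-receptors LRP5 and LRP6 they recruit Dishevelled and stabilize β-catenin, and with other partners such as ROR2, RYK or VANGL2 they signal without β-catenin in planar cell polarity and cell movement. Their amount at the cell surface is set in part by the ubiquitin ligases ZNRF3 and RNF43, which R-spondins and LGR receptors hold back. By sequence the family falls into a branch of *Fzd1*, *Fzd2* and *Fzd7*, a branch of *Fzd5* and *Fzd8*, a branch of *Fzd3* and *Fzd6*, and a branch of *Fzd4*, *Fzd9* and *Fzd10*.

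Each genotype was measured on 1 array, so there was no replicate error, no test was possible and differences are described by size alone. The values are log2 expression after the robust multi-array average, with a median of 5.28 in *BCL11B*+/+ and 5.28 in *BCL11B*-/- MEFs. *Bcl11b* itself was 2.26- to 2.97-fold lower on its 4 probe sets in *BCL11B*-/- MEFs, although the sources used here do not place the deletion relative to these probe sets. *Xist*, the RNA of the inactive X chromosome, read 10.80 in the *BCL11B*+/+ and 4.80 in the *BCL11B*-/- culture on its highest probe set. Its other probe sets read 10.39 and 2.85, and 8.40 and 3.71, in these cultures. The Y-linked genes *Eif2s3y* (7.89 and 8.97), *Kdm5d* (6.84 and 7.81) and *Uty* (6.80 and 7.61) lay in both above 5 log2 units, the floor on the mean for a gene to count as measured, with higher values in *BCL11B*-/- MEFs, so the sex makeup of the cultures and the genotype cannot be told apart. Fibroblast genes such as *Col1a2* (14.06 and 13.97) and *Col3a1* (13.87 and 13.74) were abundant in both. β-Actin control signal toward the 3′ end exceeded that toward the 5′ end, a gap that widens as RNA degrades, by 1.64 and 1.47 log2 units, and for the *Gapdh* control the gap was 0.48 and 0.52. In cultures of mixed cells, fewer cells of a type and less RNA per cell cannot be told apart.

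None of the 10 Frizzled genes differed by 1.5-fold between the genotypes when each was read on its brightest probe set, the one with the highest mean of both arrays. Across the 12331 genes with a mean of at least 5 log2 units, 3.36% differed by that much, 1.61% higher and 1.75% lower in *BCL11B*-/- MEFs. With 10 genes, 0 is a share near that background. All 10 Frizzled genes had a mean of at least 5. Of them 6 had a higher and 4 a lower value in *BCL11B*-/- MEFs, with a median difference of 0.099 log2 units against 0 over all measured genes. The differences ran from −0.28 for *Fzd4* to 0.55 for *Fzd9*, which is 1.47-fold. The median absolute difference was 0.18 for the Frizzled genes and 0.11 for all measured genes. At 1.2-fold, *Fzd1*, *Fzd8* and *Fzd9* were higher and *Fzd4* was lower, against a background of 16.6% of genes either way, 8.81% higher and 7.8% lower.

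**Figure D1:**
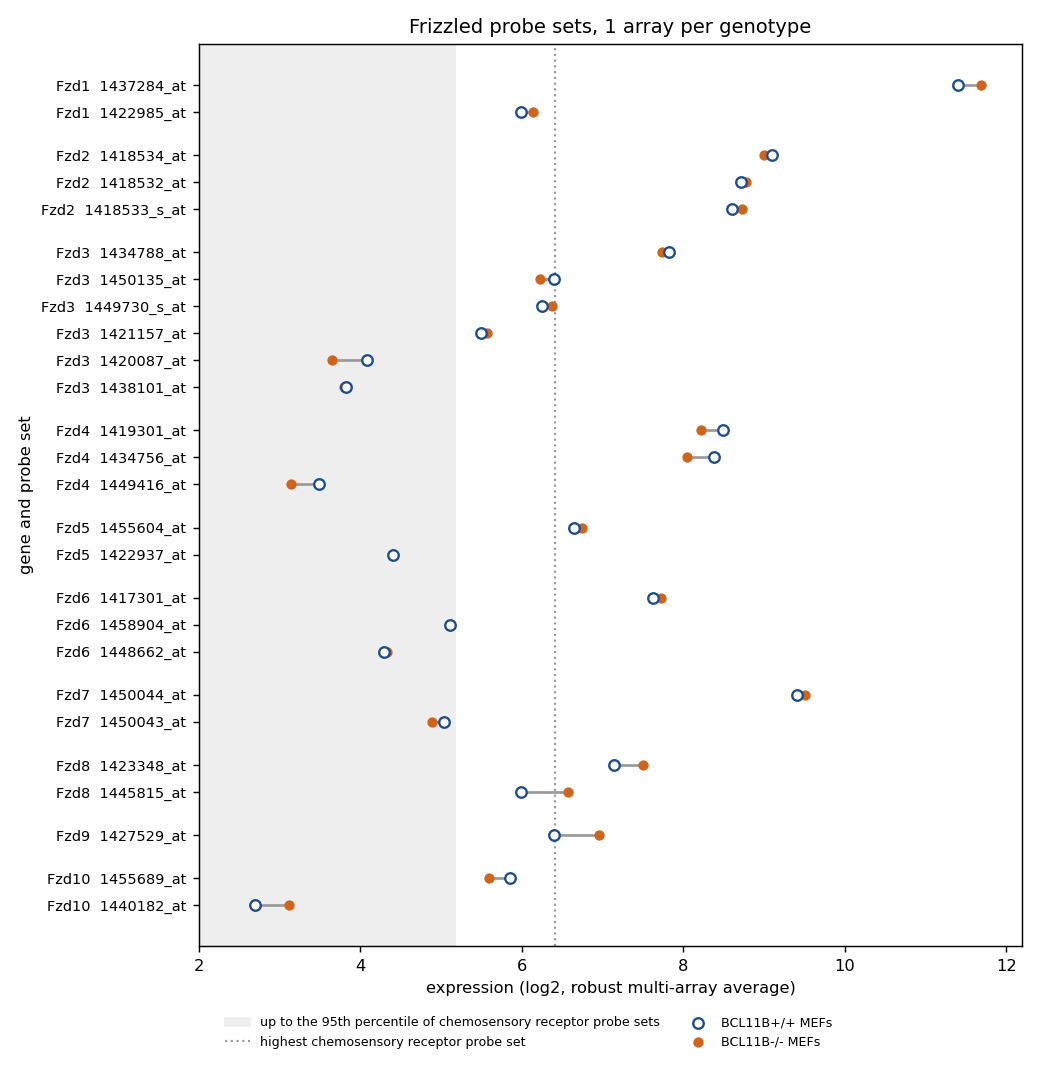
Log2 expression (horizontal axis) of the 26 Frizzled probe sets (vertical axis) with open circles for *BCL11B*+/+ and filled circles for *BCL11B*-/- MEFs, from 1 array each and so without error bars. The grey area ends at 5.18, the 95th percentile of chemosensory receptor probe sets, and the dotted line marks the highest of them at 6.41. *Fzd8* and *Fzd9* show the longest shifts to the right above the grey area, and the 3 probe sets of *Fzd4* all shift to the left.

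To judge which Frizzled transcripts were present at all, levels were set beside 83 probe sets of olfactory, vomeronasal and taste receptor genes, which fibroblasts are not known to use. These had a median level of 3.51, a 95th percentile of 5.18 and a maximum of 6.41 log2 units. The highest probe sets of 9 Frizzled genes lay above that maximum. *Fzd10*, with a mean of 5.73, lay above 82 of the 83. Probe sets differ in how well they bind, so these levels do not order the receptors by abundance. Of the 26 Frizzled probe sets 7 had a mean under 5, and their differences are of signal close to that of genes without transcript. As yardsticks of technical spread, the difference varied among probe sets of the same gene with an SD of 0.145 log2 units, pooled from 5543 genes, and the chemosensory probe sets differed between the arrays with an SD of 0.15 and a range of −0.30 to 0.50. Neither contains the variation between cultures.

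The genes that stood farthest from 0 in the family were *Fzd9*, *Fzd8*, *Fzd1* and *Fzd4*. The region upstream of the annotated start was at hand for *Fzd1*, *Fzd4*, *Fzd5*, *Fzd7*, *Fzd9* and *Fzd10*, from RefSeq on build GRCm38.p6, while *Fzd2*, *Fzd3*, *Fzd6* and *Fzd8* were not matched. The 250 bases before the start are shown for the member with the largest difference and for those that lay on the same side of 0 on all of several probe sets. They were searched on both strands for the GC box (GGGCGG), the half-site AGGTCA of nuclear receptors such as the COUP-TF partners of BCL11B, the core CTTTGA of TCF/LEF sites and the TATA box (TATAAA), and capitals mark every match. The *Fzd9* window lies at chr5:135251048-135251297 on the minus strand, the *Fzd4* window at chr7:89404116-89404365 on the plus strand and the *Fzd1* window at chr5:4758217-4758466 on the minus strand.
Fzd9: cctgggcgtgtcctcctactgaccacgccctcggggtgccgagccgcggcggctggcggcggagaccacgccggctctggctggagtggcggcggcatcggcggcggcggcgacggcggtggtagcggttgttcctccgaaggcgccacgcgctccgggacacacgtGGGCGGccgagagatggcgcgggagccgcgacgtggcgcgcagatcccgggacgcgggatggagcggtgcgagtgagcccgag
Fzd4: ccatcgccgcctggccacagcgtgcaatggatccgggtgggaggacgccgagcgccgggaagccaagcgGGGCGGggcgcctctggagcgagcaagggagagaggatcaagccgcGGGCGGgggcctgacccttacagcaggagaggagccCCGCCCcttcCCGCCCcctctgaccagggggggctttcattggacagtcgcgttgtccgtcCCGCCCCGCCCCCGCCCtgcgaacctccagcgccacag
Fzd1: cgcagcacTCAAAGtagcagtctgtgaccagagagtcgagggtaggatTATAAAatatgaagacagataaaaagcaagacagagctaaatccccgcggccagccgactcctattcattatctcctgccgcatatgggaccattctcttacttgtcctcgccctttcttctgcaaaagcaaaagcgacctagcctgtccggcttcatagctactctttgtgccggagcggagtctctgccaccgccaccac

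These upstream windows were unlike in composition. The *Fzd9* window held 76.4% G and C with 1 GC box, and the *Fzd4* window held 72.8% with 7 GC boxes, some of which adjoin each other. The *Fzd1* window held 51.2%, no GC box, 1 TCF/LEF core read on the opposite strand and 1 TATA box. The median over 32851 windows of the same length from all genes was 52.4% and the 90th percentile was 69.2%. A GC box occurred in 5 of the 6 Frizzled windows and in 32.7% of all windows. The nuclear receptor half-site occurred in 0 of the 6 and in 14.0% of all windows, the TCF/LEF core in 1 of the 6 and in 13.8%, and the TATA box in 1 of the 6 and in 12.4%. These are matches of letters and not binding sites, and a window without a match says nothing about the factor.

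*Fzd9*, a receptor known for a role in bone formation, had the largest difference of the family on its brightest probe set. Its only probe set read 6.40 in *BCL11B*+/+ and 6.95 in *BCL11B*-/- MEFs. This log2 difference of 0.55 was just short of 1.5-fold, which is 0.58 on this scale. Of all measured genes 3.87% differed by at least as much. It was 3.81 times the pooled SD between probe sets and beyond the largest chemosensory difference of 0.50. Neither yardstick contains the variation between cultures, and the chemosensory probe sets were dimmer, with a median level of 3.51. The *BCL11B*+/+ value of *Fzd9* lay just under the highest chemosensory level and the *BCL11B*-/- value above it. With a single probe set, no second reading of *Fzd9* was at hand.

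*Fzd10*, its relative in the same branch, gave no common direction. The brighter probe set read 5.86 in *BCL11B*+/+ and 5.60 in *BCL11B*-/- MEFs, a difference of −0.26. The dim one read 2.69 and 3.12, a difference of 0.42 at a level where 22.9% of the chemosensory probe sets were lower. The mean of both was 0.082.

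*Fzd8* and *Fzd5*, close relatives that serve Wnt/β-catenin signaling in the embryo, were higher on each of their 3 probe sets with a mean of at least 5. The brighter *Fzd8* probe set read 7.15 in *BCL11B*+/+ and 7.50 in *BCL11B*-/- MEFs. Its dimmer probe set read 5.99 and 6.58, with a mean above 98.8% of the chemosensory probe sets but under the highest at 6.41. The differences were 0.35 and 0.59, and the second, 1.51-fold, was the only Frizzled probe set past 1.5-fold. Among all probe sets with a mean of at least 5, 3.05% were past it, and 1 of the 19 Frizzled probe sets is a share of the same order. Taken as the mean of both probe sets, *Fzd8* differed by 0.47, short of 1.5-fold. *Fzd5* read 6.64 and 6.74 on its brighter probe set, a difference of 0.099. Its other probe set read 4.41 in both genotypes, within the range of the chemosensory probe sets.

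*Fzd1*, *Fzd2* and *Fzd7*, broadly expressed receptors that work in both β-catenin-dependent and β-catenin-independent signaling, all had a probe set at 9 log2 units or more in both genotypes. *Fzd1* read 11.40 in *BCL11B*+/+ and 11.69 in *BCL11B*-/- MEFs. The difference of 0.29 is 1.23-fold, and 13.7% of measured genes differed by at least as much. The second probe set of *Fzd1* read 5.99 and 6.14, a difference of 0.16 on the same side. Its mean lay above 98.8% of the chemosensory probe sets but under the highest at 6.41. *Fzd2*, which is known to carry Wnt5a signals, read 9.10 and 9.01 on its highest probe set, a difference of −0.099. Its other probe sets read 8.71 and 8.78, and 8.61 and 8.72, with differences of 0.064 and 0.12. The mean of the 3 was 0.027, and the SD between them was 0.11, so no direction could be given for *Fzd2*. *Fzd7* read 9.41 and 9.51, a difference of 0.10, and its dim probe set read 5.04 and 4.88, a difference of −0.15.

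*Fzd4*, the receptor for norrin as well as Wnts and needed for the blood vessels of the retina, was the only member with several probe sets that was lower on all of them. The brightest probe set read 8.50 in *BCL11B*+/+ and 8.22 in *BCL11B*-/- MEFs. The next read 8.39 and 8.04, and the dim one read 3.49 and 3.14. The differences of −0.28, −0.34 and −0.35 lay close together, with 1.21- to 1.28-fold. Of all measured genes 15.0% differed by at least as much as its highest probe set. Norrin, encoded by *Ndp*, read 3.19 and 3.05, within the range of the chemosensory probe sets. *Tspan12*, a tetraspanin that joins *Fzd4* in norrin signaling, read 5.71 and 6.04, a difference of 0.33.

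*Fzd3* and *Fzd6*, the mammalian receptors of planar cell polarity, which guide axons and orient hair follicles, gave differences on both sides of 0. *Fzd3* was read by 6 probe sets, the most in the family. The brightest read 7.82 in *BCL11B*+/+ and 7.74 in *BCL11B*-/- MEFs, a difference of −0.086. The other 3 with a mean of at least 5 differed by −0.17, 0.12 and 0.073, and the 2 dimmer ones by −0.44 and −0.030. The SD between the 4 probe sets at a mean of at least 5 was 0.14, larger than their mean of −0.017. *Fzd6* read 7.63 and 7.73 on its brightest probe set, a difference of 0.10, while its other probe sets differed by −0.0073 and 0.031.

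Across the family, *Fzd1*, *Fzd4*, *Fzd8*, *Fzd9* and *Fzd10* differed by more than the pooled SD between probe sets, and *Fzd2*, *Fzd3*, *Fzd5*, *Fzd6* and *Fzd7* by less. The share of all measured genes beyond that SD was not computed, so the split says little about the family. Of all measured genes 17.0% differed by at least as much as *Fzd10*. Of the 9 genes with several probe sets, 3 had all of them on the same side of 0: *Fzd1* and *Fzd8* higher and *Fzd4* lower. For this count too the matching share over all genes was not computed, and the dimmest *Fzd4* probe set had a mean under 5. Of the 19 probe sets with a mean of at least 5, 12 were higher and 7 were lower. Probe sets of a gene read the same transcripts and are not replicates of the genotype.

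**Figure D2:**
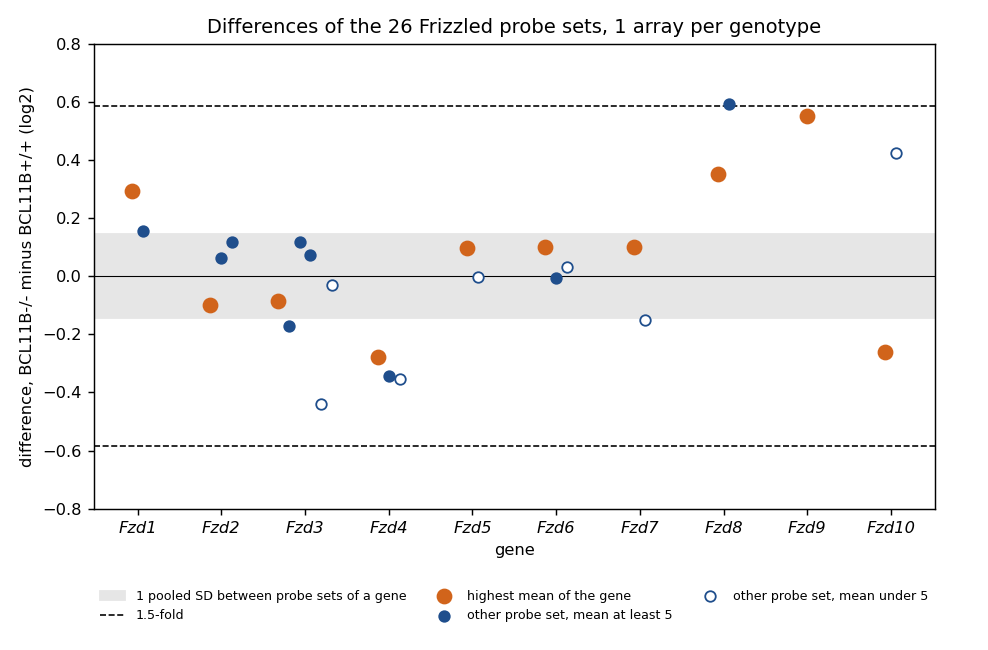
Log2 expression in *BCL11B*-/- minus that in *BCL11B*+/+ MEFs (vertical axis) for the probe sets of each Frizzled gene (horizontal axis), with 1 array per genotype. Large filled points are the probe set with the highest mean, small filled points others with a mean of at least 5, open points those under 5, the grey band is 1 pooled SD (0.145) either side of 0 and dashed lines are 1.5-fold. The dimmer *Fzd8* probe set at 0.59 is the only point past a dashed line, and *Fzd9* at 0.55 lies just inside.

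The study ranked genes by the weighted average difference, a difference weighted by expression level so that abundant transcripts come first, and took the 50 most increased and 50 most decreased genes. By this score 0 of the 10 Frizzled genes were in those lists. With only 50 of 18193 genes listed in each direction, 0 of 10 says little about the family. Among 18193 genes *Fzd1* ranked 358th, *Fzd9* 416th and *Fzd8* 431st from the most increased end, and *Fzd4* ranked 632nd from the most decreased end. *Fzd8* and *Fzd4* took these ranks through probe sets with differences of 0.59 and −0.34. *Fzd1* thus came before *Fzd9*, which had the larger difference but the lower signal.

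**Figure D3:**
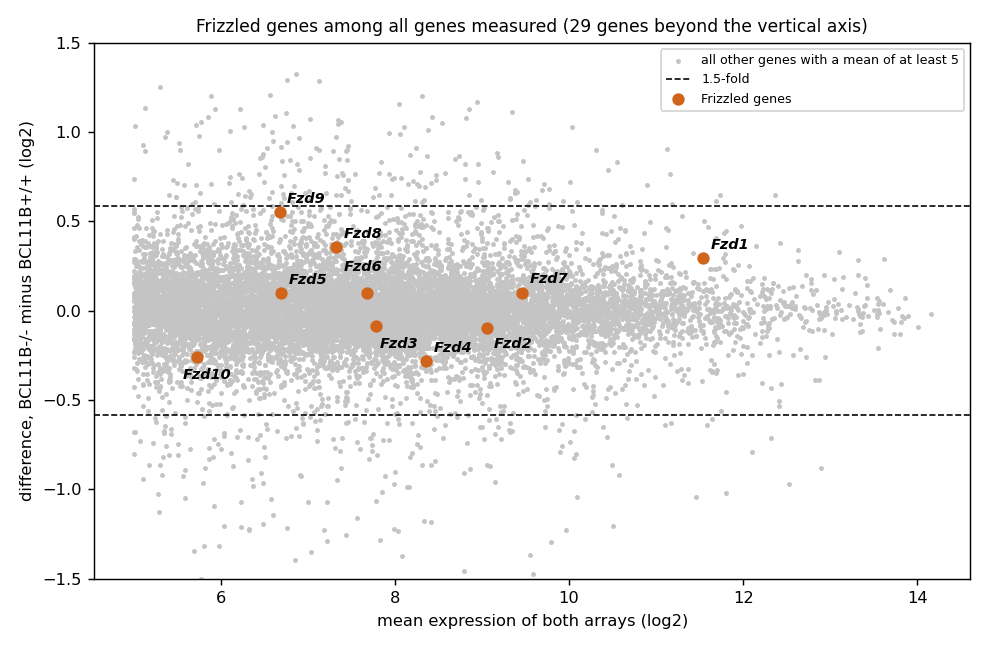
Log2 expression in *BCL11B*-/- minus that in *BCL11B*+/+ MEFs (vertical axis) against the mean of both arrays (horizontal axis, log2) for the 12331 measured genes, with the Frizzled genes as large points and 1.5-fold as dashed lines. All 10 Frizzled genes lie between the dashed lines, from −0.28 for *Fzd4* to 0.55 for *Fzd9*, and *Fzd1* stands at the highest mean, 11.54.

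The genes that work with Frizzled receptors were described by role from lists of 113 genes, of which 109 were on the array and 91 had a mean of at least 5. Of the 91, 2 reached 1.5-fold with higher values in *BCL11B*-/- MEFs, 4 with lower values and 85 were neither, against 1.61% higher and 1.75% lower over all measured genes, and with a median difference of −0.0077 against 0 for all measured genes. The co-receptors and membrane partners held 0 genes past 1.5-fold among 12, with a median of 0.026. *Lrp5* read 6.34 in *BCL11B*+/+ and 5.97 in *BCL11B*-/- MEFs, and *Lrp6* read 9.77 and 9.51, differences of −0.37 and −0.27 in the co-receptors of β-catenin signaling. *Ror1* read 9.22 and 9.63 on its highest probe set, a difference of 0.40, but another of its probe sets differed by −0.34. *Ror2*, the co-receptor for Wnt5a, read 7.84 and 7.88, *Ryk* 10.01 and 9.84, and *Ptk7* 8.32 and 8.33. The highest value of this list was 0.43 for *Sdc4*, a heparan sulfate proteoglycan, and both of its probe sets gave at least 0.40.

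Among the ligands, 1 of 13 genes with a mean of at least 5 was higher and 1 was lower, *Wnt5b* with 0.61 and *Wnt4* with −0.63, against 1.61% and 1.75% of all measured genes. The other probe set of *Wnt4* differed by −0.45, and the mean of both, −0.54, was short of 1.5-fold. *Wnt5a*, which acts through *Fzd2* and *Ror2* among others, read 9.13 and 9.67 on its highest probe set. This difference of 0.54 was short of 1.5-fold, while another of its probe sets, at 6.80 and 7.39, differed by 0.59 and passed it. The second brightest, at 8.28 and 8.61, differed by 0.33 and the dim one by 0.060. The mean of all 4 was 0.38, short of 1.5-fold. Of the 9 genes for receptor turnover and Wnt secretion, *Lgr5*, a receptor for R-spondins, was lower with −2.49 on its highest probe set and differed by −0.35 on its dim one. *Znrf3*, whose product removes Frizzled proteins from the cell surface, read 7.30 and 7.02, a difference of −0.28, and *Rnf43* read 2.93 in both genotypes, within the range of the chemosensory probe sets. *Wls*, the carrier that Wnts need for secretion, differed by 0.13.

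Of 11 secreted modulators, 0 were higher and 2 were lower by 1.5-fold, against 1.61% and 1.75% of all measured genes. Counts this small say little beside those shares. *Sostdc1*, which binds LRP co-receptors and BMPs, read 6.64 in *BCL11B*+/+ and 5.32 in *BCL11B*-/- MEFs, a difference of −1.31, and its other probe set differed by −0.56. *Dkk2*, a ligand of LRP6, read 8.62 and 7.88, a difference of −0.75. *Sfrp1*, *Sfrp2* and *Frzb*, which carry a Frizzled-like cysteine-rich domain, differed by 0.40, −0.19 and 0.19. The 5 probe sets of *Sfrp1* ranged from 0.16 to 0.53.

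Inside the cell, none of 13 Frizzled-binding and G protein genes and none of 19 Wnt/β-catenin components differed by 1.5-fold. Over all measured genes the share was 3.36%, with 1.61% higher and 1.75% lower, so the small counts in these lists say little. The Dishevelled genes *Dvl1* and *Dvl2* differed by −0.18 and −0.069, and *Dvl3* was at a mean of 4.81, under the floor. The nearest to 1.5-fold was *Tcf7l1*, a TCF that mainly represses, which read 9.64 and 9.07, a difference of −0.57. Its other probe set differed by −0.32, and the mean of both was −0.45. Of 13 planar cell polarity genes, *Daam2*, a formin that binds Dishevelled, was higher with 0.60 and 0 were lower. *Vangl1* and *Vangl2* differed by −0.11 and 0.10. *Smo*, the Hedgehog transducer that shares the Frizzled fold, read 9.94 and 9.98, a difference of 0.039. Both genes called higher rest on a probe set with a suffix that marks possible shared sequence, and averaged over every probe set *Wnt5b* differed by 0.52 and *Daam2* by 0.50, short of 1.5-fold.

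**Figure D4:**
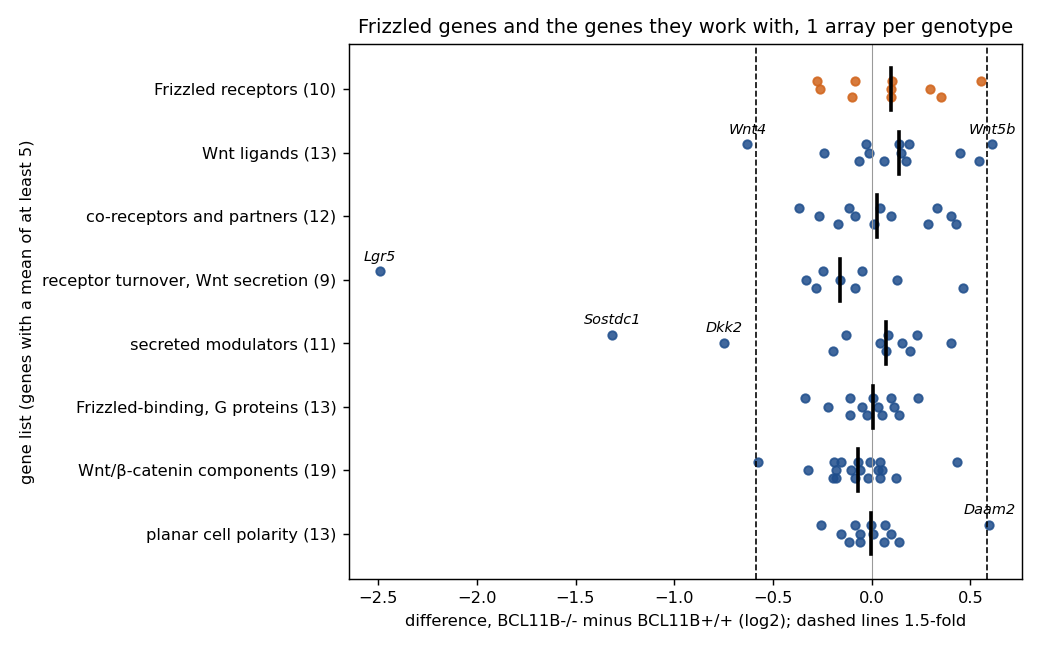
Log2 expression in *BCL11B*-/- minus that in *BCL11B*+/+ MEFs (horizontal axis) for the Frizzled genes and 7 lists of genes that work with them (vertical axis, genes with a mean of at least 5 in brackets), with 1 array per genotype. Each point is a gene, each black bar the median of a list, and the named genes lie past the dashed lines at 1.5-fold. The Frizzled genes all lie between the lines with a median of 0.099, while *Lgr5* at −2.49 is the point farthest from 0.

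Markers of other cell types differed between the same arrays. Over all measured genes, 1.61% were at least 1.5-fold higher and 1.75% lower in *BCL11B*-/- MEFs, the shares to set beside the counts below. Of 8 chondrocyte genes, 6 had a mean of at least 5, and 5 of these reached 1.5-fold with higher values in *BCL11B*-/- MEFs, with a median of 1.07. Their summed linear level was 517 in *BCL11B*+/+ and 1018 in *BCL11B*-/- MEFs, with *Matn1* and *Chad* under the floor in mean level. Of 10 macrophage genes, 9 had a mean of at least 5, and 7 of these were at least 1.5-fold lower, with summed levels of 3908 and 2250 and *Itgam* under the floor. Of 4 measured neural genes, *Tubb3* and *Stmn2* were higher with 0.61 and 0.65, *Map2* differed by 0.17 and *Gap43* by −0.53, with summed levels of 491 and 495 for all 8 listed, of which *Dcx*, *Elavl3*, *Elavl4* and *Snap25* were under the floor. No endothelial gene among 3 measured was past 1.5-fold, with summed levels of 263 and 291, and the defining markers *Pecam1*, *Cdh5*, *Tek*, *Tie1* and *Emcn* were under the floor. Among 6 measured adipocyte genes 3 were lower by 1.5-fold (*Pparg*, *Lpl* and *Cd36*), while *Cebpa* differed by −0.53, *Adipoq* by 0.56 and *Fabp4* by 0.31. Among 8 fibroblast genes 2 were lower (*Dcn* and *Thy1*), and 0 of 8 mural and 0 of 5 epithelial genes reached 1.5-fold. Averaged over every probe set, some of these calls fell short of 1.5-fold. They were the macrophage genes *Csf1r* (−0.53), *Laptm5* (−0.36) and *Ptprc* (−0.35), the chondrocyte gene *Sox9* (0.55) and the neural gene *Stmn2* (0.43). The part of these cell types in the values of *Fzd9*, *Fzd8*, *Fzd1* and *Fzd4* was not tested.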

How the data were processed

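Total RNA (100 ng) of *BCL11B*+/+ and *BCL11B*-/- MEFs was amplified, biotinylated and hybridized by the authors to Affymetrix mouse genome arrays, 1 per genotype. The authors applied the robust multi-array average (R version 3.0.3 in the submitters' processing notes) and deposited log2 values after background correction, normalization between arrays and summary of probes. Normalization gives both arrays a like distribution, which would hide a shift of total mRNA, and background shrinks the differences of dim genes. A genome build is not given in the sources used here.

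Of 45101 probe sets, 64 were controls and were left out of gene values. The annotation paired 34945 others with 1 gene and 932 with several, and only the former were named. Each gene was read on its brightest probe set (highest mean of both arrays), genes with a mean under 5 log2 units were left out of counts, and 1.5-fold was the size rule. No p-value was computed, since each genotype had 1 array. Named were the Frizzled genes, *Bcl11b*, list members past 1.5-fold and direct Frizzled partners, and others such as *Wnt5a*, *Tcf7l1*, *Sdc4*, *Wls*, *Xist*, the Y-linked genes and marker genes were chosen with their values in view. The members and lists were chosen with earlier results of these data known. Alternatives were other choices of probe set, a loess fit with a span of 0.4 or the median difference subtracted, other filters and other size rules. The weighted average difference was added after seeing the data. The count of genes by size was checked on simulated data with noise of the pooled SD between probe sets, which lacks the variation between cultures. That check required recovery of planted changes of 2-fold or more, but not of 1.5-fold. Upstream sequences came from the RefSeq promoter table, and protein sequences were not used here. Software was statsmodels 0.14.6, matplotlib 3.10.9, pandas 2.3.3, numpy 2.4.6 and Python 3.11.15.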

Additional observations from a re-analysis of the deposited data

How the results depend on the processing

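Of 50 alternative values for single Frizzled genes, 44 moved by less than the pooled SD between probe sets and 6 by more. Many of the 44 could not move. Leaving out probe sets with a suffix, or subtracting the median difference of 0, gave the main value for every Frizzled gene. *Fzd9* had only 1 probe set to choose from. The count of 44 is therefore no measure of robustness. With the probe set of the largest absolute difference, *Fzd2* went to 0.12, *Fzd3* to −0.44, *Fzd7* to −0.15, *Fzd8* to 0.59 and *Fzd10* to 0.42, and as the mean over all probe sets *Fzd10* went to 0.082. The median of the family stayed between 0.041 and 0.21 under every alternative run. The count of Frizzled genes past 1.5-fold rose from 0 to 1 higher with the probe set of the largest absolute difference. At 1.2-fold, a looser rule under which a count cannot fall, it was 3 higher and 1 lower. Among genes of the pathway lists, the 2 higher became 0 when probe sets were averaged, 0 when those with an _x, _s or _a suffix were left out, 0 with a mean of at least 7, 0 at 2-fold and 11 at 1.2-fold, and the 4 lower became 3 when probe sets were averaged, which ends the call of *Wnt4*, 3 with a mean of at least 7, which leaves out *Sostdc1*, 2 at 2-fold and 11 at 1.2-fold. Over all measured genes, the shares at 1.2-fold were 8.81% higher and 7.8% lower in *BCL11B*-/- MEFs. Of 56 alternative medians of the family and the lists, 54 moved by less than the pooled SD between probe sets. Subtracting the median difference could move none of them. The exceptions were the Wnt ligands and the Frizzled-binding and G protein genes. With a mean of at least 7, the ligands left were only *Wnt4* (−0.63) and *Wnt5a* (0.54), with a median of −0.043. The Frizzled-binding and G protein genes were at −0.15 with the probe set of the largest absolute difference, and the cause was not tested. The loess curve stayed between −0.011 and 0.016, and the median of all differences was 0. The number of Frizzled genes above every chemosensory probe set was 9, also against the 79 without a suffix, and 10 against the 44 of olfactory receptors alone. No paired analysis was possible because each genotype had 1 array.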

Other observations

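*Fzd10os*, a long noncoding RNA gene named for its place opposite *Fzd10*, read 6.13 and 5.99 in *BCL11B*+/+ and *BCL11B*-/- MEFs on its brighter probe set and 4.03 and 4.19 on the other. The differences of −0.14 and 0.16 had opposite signs, as did those of *Fzd10*, but the dimmer probe set of each gene had a mean under 5.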
